A study of Homo sapiens with 6 samples.

Results

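The genes described here encode the proteases that cut Notch receptors at the membrane: the gamma-secretase subunits PSEN2, NCSTN, APH1A, APH1B and PSENEN, and the sheddases ADAM10 and ADAM17. They were chosen by gene symbol, for their known role, and each matched 1 row of a count table of 62703 genes. All 7 passed the filter on low counts, among 15693 genes tested. The cells were HGC-27, an established line from a human gastric carcinoma, kept in RPMI medium with 10% fetal bovine serum, and their messenger RNA was sequenced. The 3 shControl libraries came from cells with a control short hairpin RNA, labelled WT by genotype. The 3 shGXYLT2 libraries came from cells stably carrying a hairpin against GXYLT2, labelled GXYLT2 knockdown. GXYLT2 is an enzyme that adds xylose to O-glucose on the EGF repeats of Notch. The labels do not say whether a line was a clone or a pool, or whether replicates were grown separately. The p-values therefore reflect the spread among libraries only, and that spread may be technical. Values with ± are the mean and SD of the 3 libraries of a group, unless said otherwise.

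Notch signalling works by proteolysis. After a ligand pulls on the receptor, ADAM10, or in some settings ADAM17, sheds the extracellular part close to the membrane. Gamma-secretase then cuts the remaining stub within the membrane and frees the intracellular domain, which acts in the nucleus. In gamma-secretase a presenilin holds the catalytic aspartates, nicastrin (NCSTN) is the large glycosylated subunit at the outer face, APH1 is the scaffold on which the complex assembles, and PEN-2 (PSENEN) completes it and promotes presenilin maturation.

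Library totals ran from 17291138 to 24898425 estimated counts. GXYLT2 averaged 21.3 ± 1.40 CPM (counts relative to library size, scaled by TMM factors) in shControl and 5.63 ± 0.556 CPM in shGXYLT2 (SD, n = 3 each). The groups did not overlap (two-sided exact permutation test of the means, p = 0.1, which is the smallest possible with 3 against 3 libraries). The cells held little of the epithelial or gastric programme: EPCAM, KRT18 and KRT19 had 5 counts or fewer in each library, the 5 epithelial markers summed to 3.77 to 5.39 CPM, 6 of 8 gastric mucosa markers had 0 counts in all 6, and VIM averaged 2669 and 2526 CPM in the 2 groups. The 5 leukocyte markers summed to 0.808 to 1.82 CPM over all libraries and the 3 endothelial markers to at most 0.24 CPM, with CD3E, PECAM1 and CDH5 at 0. The 3 fibroblast markers summed to 361 to 373 CPM in shControl and 468 to 503 CPM in shGXYLT2; DCN and LUM rose and PDGFRB stood at 1.28 and 0.673 CPM. FN1, a mesenchymal marker, rose from 38.7 to 78.7 CPM. CDH2, also listed as a mesenchymal marker, was nearly absent, at 0.0338 CPM in shControl and 0.166 CPM in shGXYLT2, and had too few counts to be tested. MUC6, a gastric gland mucin and the only gastric mucosa marker with enough counts to be tested, rose from 2.05 ± 0.244 to 4.22 ± 1.10 CPM, a log2 difference of 1.03 (adjusted p = 0.00286 in edgeR). The part of these differences in the results on proteases was not tested. In bulk RNA, fewer cells with a transcript and less of it per cell cannot be told apart.

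Both genes that passed the test among the 7 were noncatalytic gamma-secretase subunits, and both rose by small amounts. APH1A and APH1B, which are also noncatalytic subunits, did not pass. NCSTN and PSENEN passed the test (adjusted p below 0.05 in the quasi-likelihood fit of edgeR, with Benjamini-Hochberg adjustment over all tested genes), 0 members fell, and 5 did not pass. Of all tested genes 12.2% were called by the same test: 5.31% rose and 6.84% fell. At an unadjusted p below 0.05 the members numbered 3, with ADAM17 as the third. The log2 fold changes of the 7 ran from -0.14 to 0.34 with a median of 0.19, where the median of all tested genes was -0.01. In 3 members every shGXYLT2 library lay above every shControl library and in 1 (PSEN2) every one lay below, against 14.6% and 15.8% of all tested genes, or 30.4% in either direction.

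**Figure D1:**
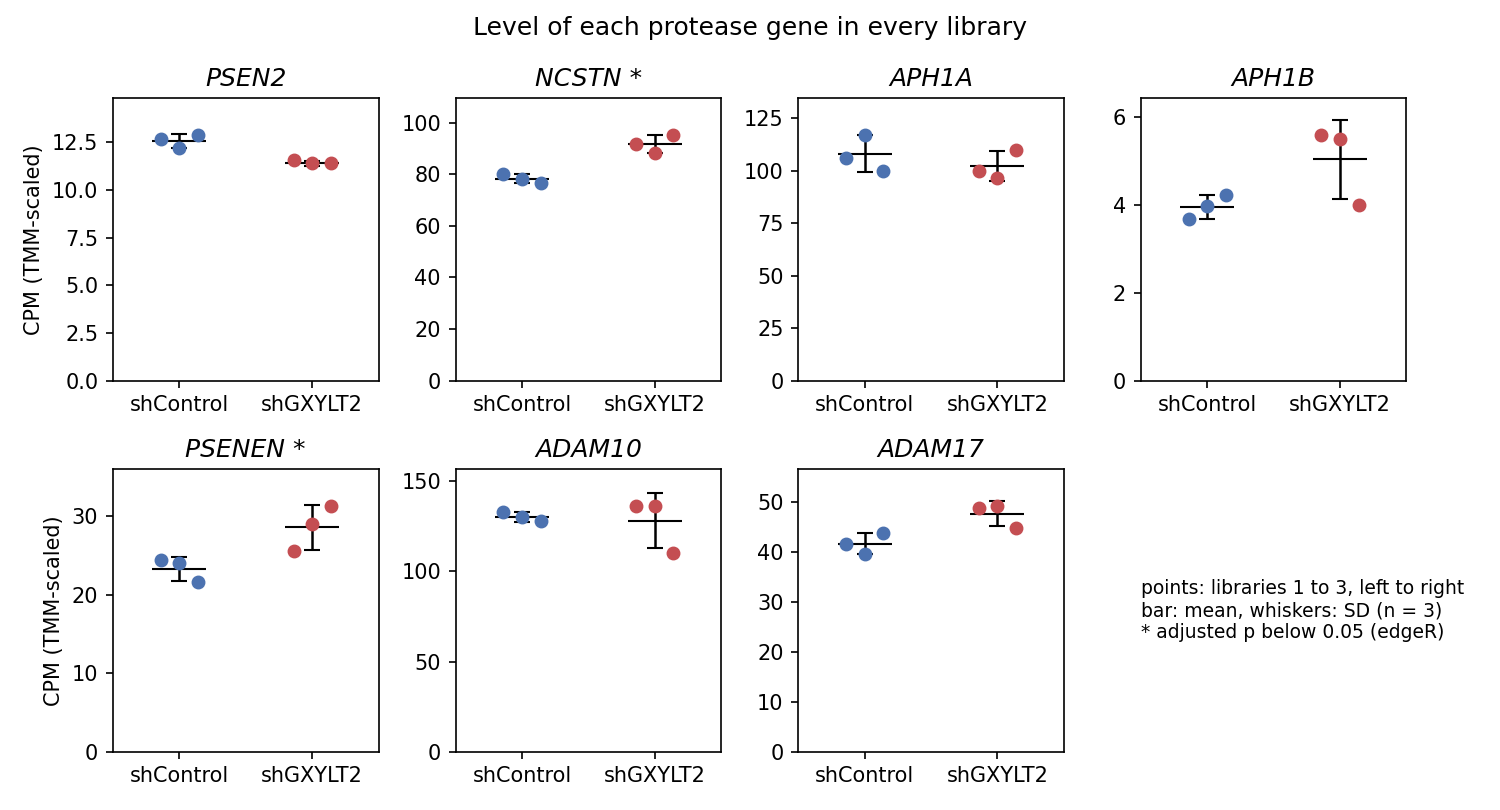
CPM of the 7 protease genes in each library (points, replicates 1 to 3 from left to right), with the group mean and SD (n = 3); each axis starts at 0 and asterisks mark adjusted p below 0.05. NCSTN rises from a mean of 78.3 to 91.7 CPM and PSENEN from 23.3 to 28.6 CPM, while shGXYLT2 replicate 3 is the low point for ADAM10 at 110 CPM.

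NCSTN, whose product is the nicastrin subunit, lies on the plus strand of chromosome 1 (chr1:160343272-160358952, GRCh38). It stood at 80.1, 78.3 and 76.6 CPM in shControl replicates 1 to 3 and at 91.6, 88.3 and 95.3 CPM in shGXYLT2 replicates 1 to 3. The groups did not overlap, and the gap between them was wider than the spread within either. The mean rose from 78.3 ± 1.72 to 91.7 ± 3.51 CPM, 1.17-fold (log2 fold change 0.23, SE 0.0616, 95% interval 0.10 to 0.36, edgeR adjusted p = 0.0197). The size of the rise was stable, with log2 fold changes of 0.20 to 0.25 over 16 alternatives, but the call depended on which libraries were included. Leaving out shControl replicate 1, 2 or 3 gave an adjusted p of 0.0754, 0.0827 or 0.11, and leaving out shGXYLT2 replicate 1 gave 0.059.

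PSENEN encodes PEN-2, the smallest subunit of the complex, from the plus strand of chromosome 19 (chr19:35745114-35747519, GRCh38). Its levels were 24.4, 24 and 21.6 CPM in the shControl libraries and 25.6, 29 and 31.3 CPM in the shGXYLT2 libraries. Here the groups lay close together, since the highest shControl library and the lowest shGXYLT2 library were adjacent. The mean rose 1.23-fold, from 23.3 ± 1.56 to 28.6 ± 2.90 CPM (log2 fold change 0.30, SE 0.0902, 95% interval 0.11 to 0.49, edgeR adjusted p = 0.0368). Among the fits that left out 1 library the call held only without shGXYLT2 replicate 1 (adjusted p = 0.02). Leaving out shControl replicate 1, 2 or 3 gave 0.075, 0.087 or 0.204, leaving out shGXYLT2 replicate 2 or 3 gave 0.0808 or 0.0759, and limma-voom on all libraries gave 0.0524.

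APH1A and APH1B are alternative scaffolds, one of which enters each complex. APH1A, on the minus strand of chromosome 1 (chr1:150265399-150269580), stood at 106, 117 and 100 CPM in shControl and at 100, 96.5 and 110 CPM in shGXYLT2. The groups overlapped, and shControl replicate 2 was the highest library of all. The log2 fold change was -0.07 (95% interval -0.22 to 0.07, adjusted p = 0.563). APH1B, on the plus strand of chromosome 15 (chr15:63276018-63309126), was read at 64 to 140 counts per library, the shallowest of the 7. It stood at 3.68, 3.98 and 4.22 CPM in shControl and at 5.59, 5.50 and 4 CPM in shGXYLT2. Replicates 1 and 2 of shGXYLT2 were above all controls and replicate 3 fell among them. Its log2 fold change of 0.34 was the largest of the 7 and did not pass (SE 0.165, adjusted p = 0.20). Without shGXYLT2 replicate 3 it was 0.48 with an adjusted p of 0.0486.

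PSEN2, the presenilin gene analysed here and so the catalytic subunit of the list, lies on the plus strand of chromosome 1 (chr1:226870184-226896105). Its levels were 12.7, 12.2 and 12.9 CPM in shControl and 11.6, 11.4 and 11.4 CPM in shGXYLT2. All shGXYLT2 libraries were below all shControl libraries, by a margin that did not pass the test (log2 fold change -0.14, SE 0.0989, 95% interval -0.35 to 0.07, edgeR adjusted p = 0.409). The direction was the same under all 16 alternatives, with log2 fold changes of -0.16 to -0.12. PSEN2 thus lay on the other side of 0 from NCSTN. Per unit of gene length the ratio of NCSTN to PSEN2 was 5.39, 5.50 and 5.08 in shControl and 6.76, 6.64 and 7.17 in shGXYLT2. This ratio sets a gene that rose over the gene with the lowest log2 fold change, and was not tested. The groups overlapped in APH1A over PSEN2 (means 12 in shControl and 12.5 in shGXYLT2) and NCSTN over PSENEN (1.34 and 1.28). They did not overlap in NCSTN over APH1A (0.447 and 0.55) and PSENEN over APH1A (0.333 and 0.43).

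ADAM10 and ADAM17 encode the membrane metalloproteases that make the first cut. ADAM10, on the minus strand of chromosome 15 (chr15:58588807-58749978), had the highest CPM of the 7. It stood at 133, 130 and 128 CPM in shControl and at 136, 136 and 110 CPM in shGXYLT2. Replicate 3 of shGXYLT2 was the lowest library and the other shGXYLT2 libraries were the highest, so the groups overlapped. The log2 fold change was -0.03 (SE 0.074, 95% interval -0.19 to 0.12, adjusted p = 0.85), and without shGXYLT2 replicate 3 it was 0.07 (adjusted p = 0.368). ADAM17, on the minus strand of chromosome 2 (chr2:9488486-9556732), stood at 41.6, 39.7 and 43.9 CPM in shControl and at 48.9, 49.2 and 44.8 CPM in shGXYLT2. Its groups did not overlap, with replicate 3 of shGXYLT2 just above the highest control. The log2 fold change of 0.19 (SE 0.0715, 95% interval 0.04 to 0.34) gave an unadjusted p of 0.0154 and did not pass after adjustment (edgeR adjusted p = 0.0924). It passed without shGXYLT2 replicate 3 (log2 fold change 0.23, adjusted p = 0.0171).

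**Figure D2:**
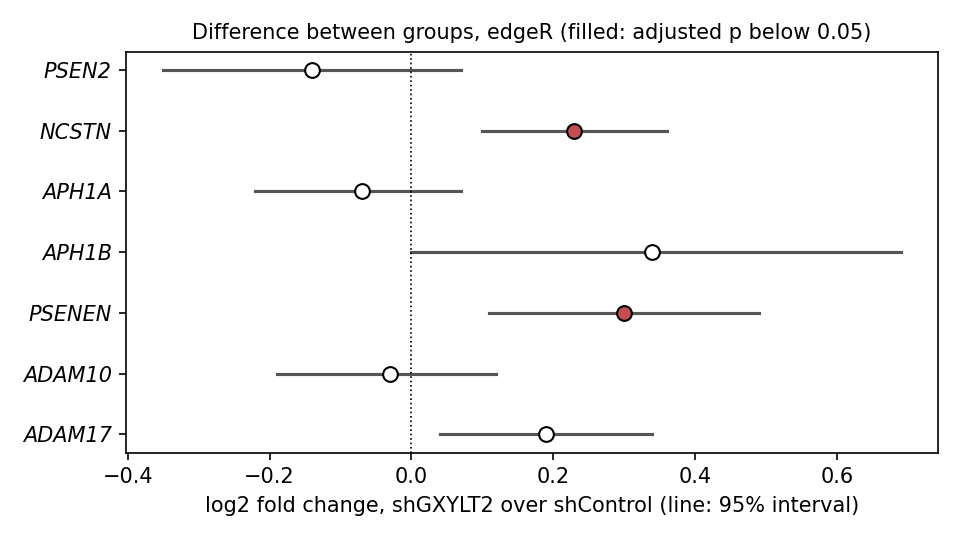
Log2 fold change of shGXYLT2 over shControl for each gene (point) with its 95% interval (line) from edgeR; filled points passed an adjusted p of 0.05. NCSTN (0.23) and PSENEN (0.30) are filled, APH1B (0.34) has the widest interval and ADAM10 (-0.03) lies next to 0.

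The 7 genes did not vary together from library to library. Relative to the mean of its own group on the log2 scale, shGXYLT2 replicate 3 was low in APH1B (-0.31), ADAM10 (-0.21) and ADAM17 (-0.09). The same library was high in PSENEN (0.13), APH1A (0.11) and NCSTN (0.06). The genes that were low in it are the longest of the 7 as deposited (4138 to 11158 bases) and the poorest in GC, at 42.4% in APH1B, 38.3% in ADAM10 and 38.5% in ADAM17. The remaining members measured 1124 to 2822 bases and 50.1% to 55.9% GC. A like trend ran through the genes whose log2 CPM averaged 3 or more: the median deviation of shGXYLT2 replicate 3 was -0.10 in genes below 45% GC and 0.09 in genes at 55% or more. It was not the only library with such a trend: shGXYLT2 replicate 2 ran the other way, at 0.07 below 45% GC and -0.11 at 55% or more. Alternative fits, added after these data were seen, took trends with length, or with GC content and length, out of each library. Those trends were measured against the mean of all 6 libraries, not of the group. A trend that differs between shGXYLT2 and shControl is therefore taken out as well. With offsets for GC content and length, ADAM17 passed (log2 fold change 0.24, edgeR adjusted p = 0.00209), ADAM10 was at 0.05 (adjusted p = 0.439), NCSTN was at 0.21 (adjusted p = 9.2e-04) and PSENEN at 0.24 (adjusted p = 0.0198), while all genes called rose in number from 1907 to 3136. With a length offset alone, ADAM17 passed at 0.0368 and PSENEN missed at 0.0515.

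**Figure D3:**
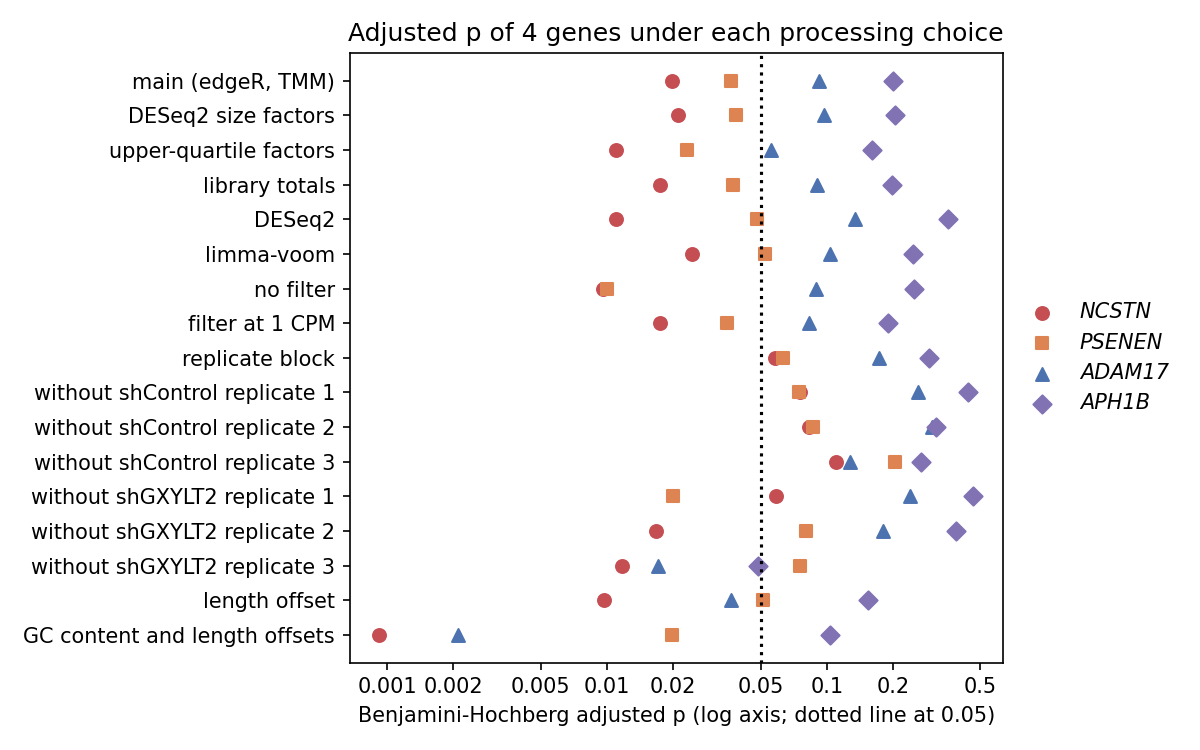
Adjusted p (log axis, dotted line at 0.05) of NCSTN, PSENEN, ADAM17 and APH1B under the reported fit and each of 16 alternatives. NCSTN is left of the line in the reported fit (0.0197) and crosses it when any shControl library is left out (0.0754 to 0.11), and ADAM17 crosses to the left without shGXYLT2 replicate 3 (0.0171) and with either offset.

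Levels were compared between genes as counts per unit of deposited gene length, rescaled to one common total per library (length-scaled level). On this scale APH1A was highest, at 123 ± 8.66 (mean and SD over the 6 libraries, as for the other members here), above 92.3% of tested genes. NCSTN followed at 61.1 ± 4.81 and PSENEN at 46.8 ± 5.48. ADAM10 (23.5 ± 2.07) and ADAM17 (20.6 ± 1.76) came next, and these neighbours overlapped in range. PSEN2 stood at 10.1 ± 0.756 and APH1B was lowest at 2.20 ± 0.409, above 23.4% of tested genes. Apart from ADAM10 and ADAM17, no neighbours in this order overlapped over the 6 libraries. ADAM10 and ADAM17, which differed about 3.13-fold in CPM in shControl, were near each other per unit of deposited length. The ratio was 1.23 ± 0.073 in shControl and 1.05 ± 0.075 in shGXYLT2. This closeness rests on deposited lengths of 11158 and 4391 bases, whose definition is not stated. Their merged exonic bases in GENCODE were 16168 and 10750, and per unit of these ADAM10 would lie further above ADAM17. Of the scaffold transcripts, APH1B made up 1.40% to 1.73% in shControl and 2.27%, 2.33% and 1.49% in shGXYLT2 replicates 1, 2 and 3.

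**Figure D4:**
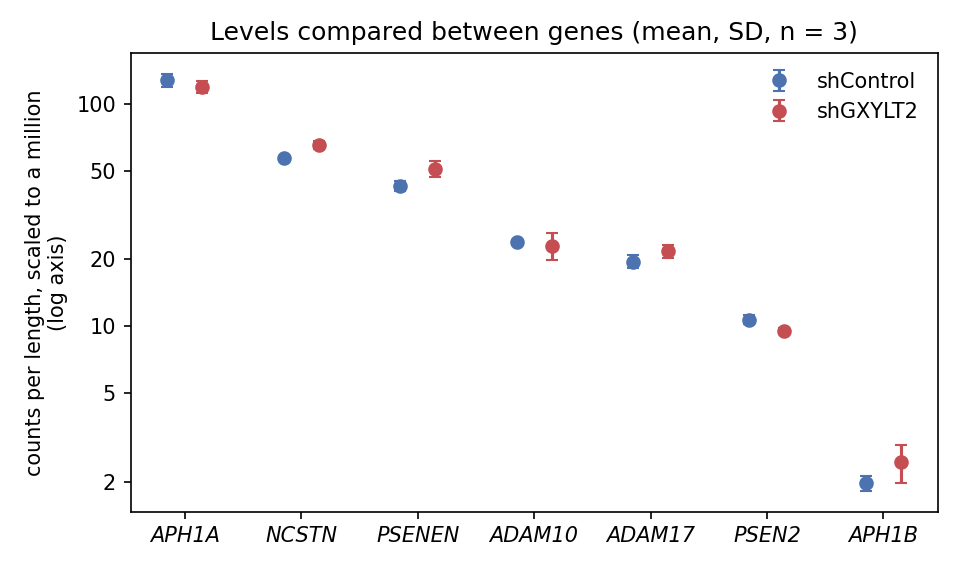
Mean length-scaled level (counts per gene length, same total in each library; log axis) with SD over 3 libraries, for shControl and shGXYLT2. The order runs from APH1A (128 in shControl and 119 in shGXYLT2) to APH1B (1.97 and 2.44) and is the same in both groups.

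The counts of called genes in the lists that follow are to be read against the 12.2% called over all tested genes. Of 9 tested genes of gamma-secretase trafficking and modulation 1 rose, with a median log2 fold change of 0.02. It was TMEM59, a Golgi membrane protein that affects glycosylation and transport of secretase substrates, from 68.8 ± 2.74 to 83.5 ± 6.77 CPM, a log2 difference of 0.28 (edgeR adjusted p = 0.0117). Its adjusted p rose to as much as 0.0826 with 1 library left out, and the call was lost without shControl replicate 2 or 3. Of 4 tested intramembrane aspartyl proteases of the signal peptide peptidase family 0 passed, with 0 at an unadjusted p below 0.05. HM13, the signal peptide peptidase itself, averaged 106 and 104 CPM (adjusted p = 0.80), and SPPL2B averaged 22.8 and 22.2 CPM (adjusted p = 0.865).

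The partners that carry ADAM10 and ADAM17 to the cell surface are tetraspanins for ADAM10 and inactive rhomboids (iRhoms), with FRMD8, for ADAM17. Of 9 tested partners 0 passed the edgeR test, and 0 had an unadjusted p below 0.05 (median log2 fold change -0.08). TSPAN17, a tetraspanin partner of ADAM10, averaged 45.3 and 45.8 CPM (adjusted p = 0.93). FRMD8, which stabilises the iRhom complex, averaged 20.6 and 19.5 CPM (adjusted p = 0.639).

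Among 8 tested genes of ADAM maturation and inhibition, 1 inhibitor rose and 1 fell. The falls numbered 2 without shGXYLT2 replicate 1 or 3, with the length offset and with both offsets. TIMP3, the matrix-bound inhibitor of ADAM17 and ADAM10, stood at 142, 134 and 124 CPM in shControl and at 109, 98.7 and 107 CPM in shGXYLT2. The groups did not overlap, and the mean fell by 0.35 on the log2 scale (SE 0.0656, edgeR adjusted p = 0.00141), a call kept in all 16 alternatives. TIMP2, an inhibitor of matrix metalloproteases, rose from 187 ± 4.16 to 223 ± 11.7 CPM, a log2 difference of 0.26 (adjusted p = 0.00644, and 0.0524 without shControl replicate 1). TIMP1 averaged 22.6 and 18.4 CPM, with groups that did not overlap, and did not pass (log2 fold change -0.29, edgeR adjusted p = 0.0577). FURIN, PCSK5, PCSK6 and PCSK7, the proprotein convertases that remove prodomains, did not pass.

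Other sheddases were present beside ADAM10 and ADAM17. ADAM9 and ADAM15 stood at 68.7 and 74.2 in length-scaled level over the 6 libraries, above ADAM10 on the same scale, and neither passed (adjusted p = 0.887 and 0.563). Of 11 other ADAM genes listed 4 passed the filter on low counts and 0 were called. Of 7 tested sheddases of other families MMP14 rose, a membrane-type matrix metalloprotease, from 161 ± 2.15 to 189 ± 6.22 CPM, a log2 difference of 0.23 (edgeR adjusted p = 0.0116). That call was lost without shControl replicate 1, 2 or 3, with adjusted p values of up to 0.0672.

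Membrane proteins that these proteases cut moved in both directions. Of 42 tested type I membrane substrates 5 rose and 4 fell, with a median log2 fold change of -0.05. EPHA4, an ephrin receptor, stood at 6.04, 7.38 and 7.57 CPM in shControl and at 11.7, 11.2 and 11.5 CPM in shGXYLT2. The groups were well apart, and its rise was the largest of the 5 (log2 fold change 0.70, edgeR adjusted p = 5.4e-04). The others that rose were the neuropilin NRP1 (0.28), the ephrin ligand EFNB2 (0.35), the receptor kinase ERBB4 (0.41) and the syndecan SDC3 (0.28). The number of rises was unstable: leaving out shControl replicate 1, 2 or 3 gave 1, 1 or 2, leaving out shGXYLT2 replicate 1 gave 1, DESeq2 gave 2, limma-voom gave 3, and the length offset and both offsets gave 8 and 9. The number of falls lay between 3 and 6 over the same alternatives, with 6 without shGXYLT2 replicate 3 and with both offsets. The EPHA4 call held in all 16 alternatives.

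SDC2, a heparan sulfate carrier, fell from 105 ± 3.92 to 74.1 ± 2.44 CPM, a log2 difference of -0.50 (edgeR adjusted p = 1.8e-05). The adhesion molecule L1CAM fell by 0.54 and the reelin receptor LRP8 by 0.49 on the log2 scale, and the calls of these genes held in all 16 alternatives. FLT1, a receptor of vascular endothelial growth factor, also fell, from 0.893 to 0.169 CPM, at few counts. Of 5 tested EGF-family growth factors, which ADAMs release from the membrane, NRG1 fell from 4.30 ± 0.230 to 3 ± 0.225 CPM (edgeR adjusted p = 0.0432). The NRG1 call was lost in each of the 6 fits that left out 1 library.

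Of the Notch receptors themselves, NOTCH2 was the one that rose, with 199 ± 2.09 CPM in shControl and 242 ± 4.41 CPM in shGXYLT2, a log2 difference of 0.28 (edgeR adjusted p = 0.0017). NOTCH1 averaged 41.4 and 42.0 CPM (adjusted p = 0.913), NOTCH3 73.7 and 82.1 CPM (adjusted p = 0.156), and NOTCH4 had too few counts to be tested. NOTCH3 passed without shGXYLT2 replicate 2 (0.0302) and with both offsets (4.0e-04).

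**Figure D5:**
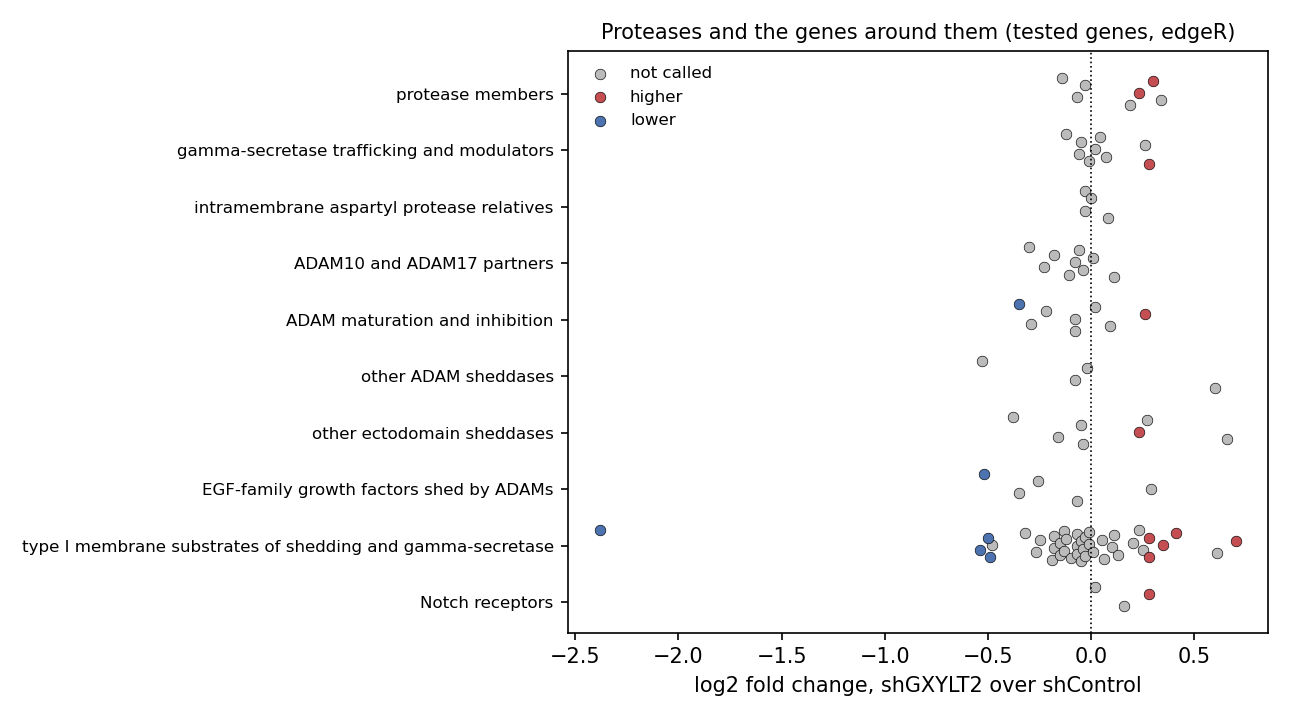
Log2 fold change of every tested gene in each list (one row of points per list; vertical spread within a row has no meaning), coloured by call. The protease genes lie between -0.14 and 0.34, the partners of ADAM10 and ADAM17 hold no coloured point, and FLT1 is the single point beyond -2.

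Over the 6 libraries, the genes whose log2 CPM was most like that of NCSTN were EMC1 (Pearson r = 0.996), MMP14 (0.995) and SUMF2 (0.994), among 9819 protein-coding genes whose log2 CPM averaged 3 or more. With so few libraries, which share the group difference, 181 genes reached an r of 0.95 or more. EMC1, a subunit of the endoplasmic reticulum membrane complex, averaged 77.5 and 86.6 CPM, and SUMF2 averaged 118 and 130 CPM. Neither passed the test (adjusted p = 0.097 and 0.113). APH1B was below this level and was not compared. Of the other protease genes compared PSENEN was closest to NCSTN (r = 0.875). PSEN2 ran opposite (r = -0.903), though its group difference did not pass (edgeR adjusted p = 0.409).

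Several of the protease genes overlap or start near a gene on the other strand, whether or not they passed the test. The first bases of NCSTN and of COPA, a coat protein of Golgi vesicles, lie 128 bases apart, and the exons overlap by 129 bases, 3.09% of NCSTN exonic sequence. COPA averaged 265 ± 4.13 and 291 ± 11.3 CPM, with groups that did not overlap and an edgeR adjusted p of 0.118. PSENEN starts 331 bases from U2AF1L4, a splicing factor gene, and shares 332 exonic bases with it, 18% of its own. Of its exonic bases 23% lie in the antisense gene AD000671.3 and 9.38% in AD000671.2, also on the other strand. PSENEN also shares 285 exonic bases, 15.4% of its own, with AD000671.1, a protein-coding gene on the same strand. U2AF1L4 averaged 9.80 ± 0.127 and 9.11 ± 0.281 CPM and did not pass (adjusted p = 0.602). ADAM17 shares 12.3% of its exonic bases with IAH1 on the opposite strand, which rose from 2.33 ± 0.245 to 4.58 ± 1.48 CPM (adjusted p = 0.00746). The sources used here do not say if strand was used in counting, so reads in exons shared between strands cannot be told apart. For PSENEN and AD000671.1, on the same strand, a strand setting would not separate them.

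Short stretches of these start regions are shown because they hold some of the sequence words counted below. They come from the 250 bases before the RefSeq start (GRCh38.p14), which was given for 6 of the 7 genes, are read 5′ to 3′ on the gene's strand, and carry the word in capitals. The RefSeq starts used here lie inside the GENCODE gene spans given above, so parts of these stretches are transcribed in some annotated transcripts.
NCSTN (chr1:160343266-160343295, plus strand): CCGGAAGcgcctggaaacacgaaCTTCCGG
PSENEN (chr19:35745413-35745442, plus strand): ctggctgctcttaCGTCActtccgttgctt
PSENEN (chr19:35745595-35745624, plus strand): cgcccaaagaagACTACAAtctccagggaa
APH1A (chr1:150269111-150269140, minus strand): cctcggaaggcgACTACAActcccagcagg
NCSTN held CCGGAAG, the core bound by ETS factors, 2 times, once on each strand, and 2.69% of 11024 promoters of tested genes held it at least 2 times on either strand. APH1A and ADAM17 held it once each, and 15.8% of promoters at least once. PSENEN held CGTCA, the core of the cAMP response element, which 29.8% of promoters held on either strand. ACTACAA, the start of the ZNF143 consensus, was in PSENEN and APH1A and in 3.62% of promoters. The genes that rose, NCSTN and PSENEN, thus shared CGTCA alone, and it was also present once in APH1A, ADAM10 and ADAM17. Other words searched on both strands were the GC box GGGCGG, held by 66.3% of promoters, the CCAAT box, held by 35.3%, the E-box CACGTG, held by 8.64%, and the TATA box word TATAAA, held by 5.57%. NCSTN and PSENEN held 0 copies of each, but most of these words were also absent from other members. TATAAA was in none of the 6 genes searched, CCAAT was in APH1A alone and CACGTG in ADAM10 alone. The GC box was in PSEN2, APH1A, ADAM10 and ADAM17. A match is a description of letters, not of binding.

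In an earlier analysis of these counts the word GACTCAT was picked from 3′ UTRs for its link to lower expression, so its counts here are no independent support. Of 12373 tested genes with a 3′ UTR of at least 100 bases 8.35% held it. Of the 7 proteases ADAM10 alone did, once, at base 4866 of its 8740-base 3′ UTR, and the site is shown with its flanks.
ADAM10 (chr15:58592664-58592692, minus strand, GRCh38): caataatagaaGACTCATgcttaattcag
Of the genes with the word 23.8% fell, against 6.38% of those without it. ADAM10 was not among those that fell (log2 fold change -0.03), and neither NCSTN nor PSENEN held the word in 3′ UTRs of 681 and 672 bases.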

How the data were processed

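Per gene, the authors deposited estimated counts without normalization, and a gene length whose definition is not stated. GRCh38.p13, HISAT2, StringTie and fastp are named in the submitters' processing notes, without their roles, the counting step or a strand setting. Per the labels' protocols, libraries were made with a stranded Illumina messenger RNA kit. Of the values 12.3% were not whole, and counts were rounded.

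Genes were filtered with filterByExpr, scaled by TMM and fitted with edgeR 4.0.16 (R 4.3.3, robust quasi-likelihood, group only, all 6 libraries). P-values were two-sided, with Benjamini-Hochberg adjustment over 15693 genes and a threshold of 0.05. limma 3.58.1 and DESeq2 1.42.0 were alternatives, with other scalings and filters, a replicate block and each library left out. The fit was also run on counts simulated for this comparison (15495 genes), with 50 genes changed at each fold. It recovered 72% of genes changed 1.5-fold and 98% of those changed 2-fold. At 1.25-fold, the smallest fold simulated and above those of NCSTN (1.17) and PSENEN (1.23), it recovered 52%. Far fewer genes were changed there than the 1907 called in the data, so the Benjamini-Hochberg adjustment was stricter. These shares therefore do not give the recovery in the real data. The biological coefficient of variation from the common dispersion in edgeR, pooled over the tested genes, was 6.50%. At 64 counts or more per library every member could be tested.

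Gene models, 3′ UTRs and GC content came from GENCODE release 29 (GRCh38), which matched 92.9% of identifiers, and promoters from RefSeq. Members and lists were chosen with earlier results of these data known. Named from each list are up to 3 risen and 3 fallen genes by adjusted p, or the 2 highest per length where none passed. COPA, U2AF1L4, IAH1 and the AD000671 genes were named for their position. ERBB4, SDC3, FLT1, TIMP1 and the proprotein convertases were named after their values were seen. Lists were described by counts and medians, with no list test.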

Additional observations from a re-analysis of the deposited data

How the results depend on the processing

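GXYLT2 was lower under all 16 alternatives (log2 fold change -2 to -1.86), and 0 protease genes fell under any. The number that rose, 2 as reported, was 1 with limma-voom and 0 to 3 with 1 library left out: 0 without any one shControl replicate, 1 without shGXYLT2 replicate 1 or 2, and 3 without shGXYLT2 replicate 3. With the replicate number as a block it was 0 (NCSTN adjusted p = 0.0581, PSENEN 0.0635) and all genes called numbered 1471. Deviations of same-numbered libraries correlated at -0.0192, -0.211 and -0.264 over 10021 genes, so these libraries were not alike in this measure. Library-wide trends with GC content, opposite in shGXYLT2 replicates 2 and 3, also enter it. Whether libraries shared a batch was not tested. The replicate numbers are those of the sample titles. The column headers number the libraries 1, 2 and 4 in shControl and 1, 3 and 4 in shGXYLT2, so replicate 2 has different header numbers in the 2 groups. All genes called numbered 1907, 960 to 2347 with 1 library left out, and 3136 with GC content and length offsets, which were chosen after seeing the data. Upper-quartile factors gave 1024 rises and 963 falls, against 833 and 1074. Directions near 0 reversed. With 1 library left out the log2 fold change ran from -0.08 to 0.07 in ADAM10, -0.07 to 0.05 in ADAM9, -0.08 to 0.05 in SPPL2B, -0.07 to 0.01 in HM13, -0.14 to 0.01 in ADAM15, -0.04 to 0.06 in TSPAN17 and -0.02 to 0.09 in NOTCH1. ADAM10 was at 0.03 with the length offset and 0.05 with both offsets, ADAM9 at 0.01 and 0.03 and at 0.00 with upper-quartile factors, and SPPL2B at 0.02 with both. Fits without a library also have fewer samples. The cause of the other changes was not tested.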
